A study of Mus musculus with 8 samples.

Results

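Open chromatin was compared between 2 sorted populations of haematopoietic stem cells (HSC), T1 and T2, taken from the mosaic bone marrow of Bcl11a MUT mice. Peaks of the 4 MUT libraries (2 of T1, 2 of T2) that overlapped by at least 1 bp were merged into 85310 regions on chromosomes 1 to 19 and X. A region was called T1-only when both T1 libraries and neither T2 library had a peak in it, and T2-only in the opposite case. By that rule 590 regions (0.692% of all regions) were T1-only and 1602 (1.88%) were T2-only, while 55791 regions had a peak in all 4 libraries. In those shared regions the ranks of peak strength were compared as well, and none differed between T1 and T2 past the threshold used.

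BCL11A is a zinc-finger transcriptional repressor, best known for silencing the fetal globin genes in red cells and for its need in B cell development, and it is also expressed in stem and progenitor cells. It acts together with the NuRD and other chromatin complexes, so a change of its activity could alter which elements are open. HSC sit at the top of the blood hierarchy, and a mosaic animal places cells of different genotype side by side in the same marrow.

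All 4 MUT libraries carry the Vav1-cre and iMOS Bcl11a MUT alleles. Vav1-cre drives recombination in blood cells, and its action in other cells of the niche is not given by the labels. Another 4 libraries (2 of T1, 2 of T2) come from Vav1-cre iMOS Bcl11a WT mice, which share the Cre and the mosaic allele, and they are used here only as libraries outside the rule. The series names the cell-intrinsic role of Bcl11a, and the effect of its overexpression on wild-type neighbours, as its questions. The population that carries the Bcl11a transgene, T1 or T2, is not stated in the labels read here, and both are called by their labels throughout. The mice were 2 to 3 months old by the sample labels and 3 months old by the design text. Each library was made from 5000 nuclei of sorted long-term HSC, treated with a transposase that cuts open chromatin and adds sequencing adapters (ATAC-seq) for 30 min at 37 °C. The labels do not say whether the replicates are separate mice, pools or repeats of 1 sort, so every p-value below measures only the spread between these libraries.

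A short set of sequences shows what a one-sided region looked like where it reached the 250 bases in front of an annotated transcription start. Such a window was overlapped by a T1-only region in 23 cases and by a T2-only region in 48, from 23 and 42 regions. For each side the named, non-predicted gene with the strongest and with the next strongest region that kept its side under every other processing choice is shown, followed by 1 gene whose window holds the BCL11A hexamer TGACCA. The windows are RefSeq sequence of build GRCm38.p6 (mm10), written 5′ to 3′ on the strand of the gene and ending 1 base before its start. Capitals mark matches, on either strand, of any of the 8 motifs searched. The T1-only windows belong to Gimap7 (a GTPase of the immunity-associated family; plus strand, chr6:48718371-48718620), Lrrc43 (a leucine-rich repeat protein; plus strand, chr5:123489075-123489324) and Aspa (aspartoacylase; minus strand, chr11:73324638-73324887). The T2-only windows belong to Clec4a3 (a C-type lectin of myeloid cells; plus strand, chr6:122952265-122952514), Sash3 (a lymphocyte signalling adaptor; plus strand, chrX:48146186-48146435) and Gm14137 (a predicted gene; plus strand, chr2:119174259-119174508).
Gimap7: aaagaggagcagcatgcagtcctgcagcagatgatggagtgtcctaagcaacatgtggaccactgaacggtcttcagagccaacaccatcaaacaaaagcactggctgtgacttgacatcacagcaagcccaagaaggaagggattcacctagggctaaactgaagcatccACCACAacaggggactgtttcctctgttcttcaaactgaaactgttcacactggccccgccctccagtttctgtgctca
Lrrc43: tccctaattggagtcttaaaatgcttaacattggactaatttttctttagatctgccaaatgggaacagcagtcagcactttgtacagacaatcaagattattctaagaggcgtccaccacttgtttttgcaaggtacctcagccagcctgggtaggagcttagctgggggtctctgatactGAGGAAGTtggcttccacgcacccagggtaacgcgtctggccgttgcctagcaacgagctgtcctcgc
Aspa: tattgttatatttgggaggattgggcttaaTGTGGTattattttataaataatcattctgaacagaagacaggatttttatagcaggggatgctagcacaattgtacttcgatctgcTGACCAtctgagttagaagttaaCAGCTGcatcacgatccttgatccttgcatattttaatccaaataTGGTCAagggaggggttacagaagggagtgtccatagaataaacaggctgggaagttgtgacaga
Clec4a3: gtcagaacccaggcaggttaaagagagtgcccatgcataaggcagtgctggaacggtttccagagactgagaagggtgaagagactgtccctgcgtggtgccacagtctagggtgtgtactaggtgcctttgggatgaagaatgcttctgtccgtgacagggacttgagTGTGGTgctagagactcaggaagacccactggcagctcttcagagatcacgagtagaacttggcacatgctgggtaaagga
Sash3: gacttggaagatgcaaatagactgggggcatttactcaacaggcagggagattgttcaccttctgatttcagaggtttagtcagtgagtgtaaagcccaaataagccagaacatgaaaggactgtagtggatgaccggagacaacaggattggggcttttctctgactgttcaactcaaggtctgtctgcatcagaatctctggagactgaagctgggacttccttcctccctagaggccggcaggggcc
Gm14137: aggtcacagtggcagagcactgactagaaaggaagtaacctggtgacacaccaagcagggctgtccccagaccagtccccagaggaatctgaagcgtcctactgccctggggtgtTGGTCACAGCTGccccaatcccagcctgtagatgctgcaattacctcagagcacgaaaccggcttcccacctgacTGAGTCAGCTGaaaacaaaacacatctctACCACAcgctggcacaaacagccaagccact

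Around the Gimap7 start, fold enrichment over local background, the peak caller's own measure of peak strength, was 6.91 and 5.93 in the T1 libraries, and the WT libraries had peaks of 6.601 and 4.43 (T1) and 4.93 (T2 replicate 1). Its RUNX match lay 79 bases before the start and inside the region. The Lrrc43 region had values of 5.13 and 5.19 in T1, with WT peaks in T1 replicate 2 and T2 replicate 1. Around Clec4a3 the T2 libraries had 5.70 and 5.36 and no WT library had a peak. The Sash3 region had 6.08 and 4.77 in T2, but all 4 WT libraries had it too, T1 and T2 alike. Its window held none of the 8 motifs.

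In the Aspa window TGACCA occurred 133 and 65 bases before the start, and only the nearer copy lay inside the T1-only region, whose fold enrichment was 3.62 and 3.51. In the Gm14137 window it occurred 135 bases before the start, inside a T2-only region of 3.71 and 3.57. The Aspa region kept its side under every alternative and the Gm14137 region did not, and each had peaks in 3 WT libraries. The strongest T2-only window with TGACCA, of the predicted gene Gm2447, is not shown, and its region had 7.68 and 4.82 and kept its side. The T2-only region at Meg3 and the T1-only regions at Gm34496, Trpc5 and 1700041B01Rik were also stronger than the one shown for their side. None of these kept its side under every alternative, and those at Gm34496 and Trpc5 had no WT peak. TGACCA was present in 5 of the 23 T1-only windows (21.7%) and in 3 of the 48 T2-only windows (6.25%), against 9.15% of 15341 windows whose region was called in all 4 libraries and 11.4% of all 32619 windows of this length. The RUNX hexamer TGTGGT was present in 7 T1-only windows (30.4%) and 14 T2-only windows (29.2%), against 10.5% of windows called in all 4 and 13.9% of all windows. The E-box CAGCTG was in 30.4% of T1-only, 12.5% of T2-only and 13.1% of all windows. Shares for the others are given in the order T1-only, T2-only and all windows. They were 4.35%, 10.4% and 10.02% for AGATAA, the hexamer of the GATA family. For the ETS hexamer CCGGAA they were 8.70%, 10.4% and 12.1%, and for the PU.1 octamer GAGGAAGT 4.35%, 6.25% and 2.46%. For AP-1 (TGANTCA) they were 8.70%, 8.33% and 6.78%. The longer CTCF motif was in none of the one-sided windows and in 0.0123% of all windows. Each motif was searched on both strands. The 48 T2-only windows came from 42 regions and overlap in part, so the same RUNX match at Clec4a3 was counted more than once. These shares rest on few windows and were not tested, and a match says only that the letters are there.

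The 4 lists differed in size and depth before any comparison of T1 with T2. T1 replicate 1 had 74192 peaks, T1 replicate 2 had 63976, T2 replicate 1 had 74785 and T2 replicate 2 had 71239. The groups overlap, with means of 69084 ± 7223.8 (SD, n = 2) for T1 and 73012 ± 2507.4 (SD, n = 2) for T2. The difference of -3928 peaks gave a two-sided exact permutation p = 0.667, where 6 arrangements allow no value under 0.333. The genome-wide background that the peak caller used, a measure of depth recovered from the deposited values, was 3.38, 2.035, 3.21 and 3.10 in units of pileup, in the same order. T1 replicate 2 thus stood apart from the other 3 MUT libraries in depth, in peak number and in median peak width (516 bp against 585 to 626 bp). Replicate numbers also marked a difference between libraries: replicate 1 of T1 and T2 had 8 and 6 peaks in the first 3 Mb of chromosome Y and 1 peak each in Xist, while replicate 2 of both had no Y peak there and 3 peaks in Xist. The WT libraries split by replicate number in the same manner (5 against 0 Y peaks in each population), so each group holds 1 library of each kind.

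T1 and T2 libraries shared peaks across populations as much as within them. The share of covered bases in common (Jaccard index) was 0.644 between the T1 replicates and 0.732 between the T2 replicates. Across populations it was 0.744 for the replicate 1 libraries, 0.726 for T1 replicate 1 with T2 replicate 2, 0.659 for T1 replicate 2 with T2 replicate 1, and 0.677 for the replicate 2 libraries. Each value with T1 replicate 2 was below each value without it, and the highest of all joined a T1 with a T2 library.

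The T1-only and T2-only counts depended on which libraries and how many peaks per list were taken. Of the 2192 one-sided regions 26.9% were T1-only (exact Clopper-Pearson interval 25.1 to 28.8%, for counting error only). With every list cut to its 63976 peaks of lowest p-value there were 931 T1-only (1.23%) and 985 T2-only regions (1.3%), and the T1-only share was 48.6%. Rescaling to the lowest background changed little, with 606 T1-only and 1534 T2-only regions and a T1-only share of 28.3%. The rescaled MUT lists still held from 63976 to 73086 peaks. Leaving out T1 replicate 2 turned the balance, to 4316 T1-only and 2627 T2-only regions (62.2%), whereas leaving out T1 replicate 1 gave 1930 and 7828 (19.8%). Comparing only the replicate 1 libraries, which were of like depth, 6788 regions had a peak in T1 and not in T2 and 7161 the opposite (48.7%). Between the replicate 2 libraries the counts were 4208 and 11983. A region without a peak in a list may be open below the peak caller's threshold, and in bulk chromatin fewer cells with an open site cannot be told apart from less opening per cell.

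**Figure D1:**
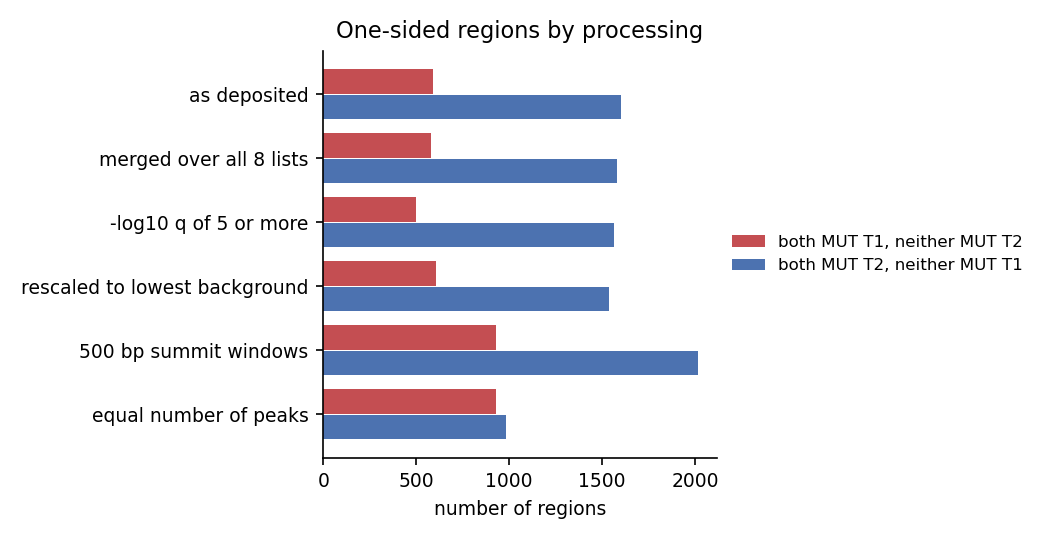
Bars give the number of regions with a peak in both MUT T1 and neither MUT T2 library (red) and in both MUT T2 and neither MUT T1 library (blue) under 6 ways of processing the lists. The blue bars are longer in all of them, and with an equal number of peaks per list the counts were 931 and 985.

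Which regions were one-sided also depended on the processing. Of the 590 T1-only regions 274 (46.4%) stayed T1-only with equal lists, and of the 1602 T2-only regions 498 (31.1%) stayed T2-only. Under all 5 alternatives tried, 224 T1-only regions (37.97%) and 491 T2-only regions (30.6%) kept their side, and none passed to the other. One-sided regions were weak and narrow. The median of the smaller fold enrichment was 4.11 for T1-only (2.05 to 9.81) and 4.03 for T2-only (1.82 to 15.01), against 6.32 for regions called in all 4, and the median widths were 392.5, 406 and 833 bp. Summit pileup is the height of stacked reads or fragments at the peak's highest point, recovered from the deposited values. Its median was 22 and 17 in the T1 libraries over T1-only regions, and 24 and 23 in the T2 libraries over T2-only regions. The same measure over regions called in all 4 libraries ran from 41 to 60.

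Most one-sided regions lay away from gene ends. Of the T1-only regions 322 (54.6%) had their midpoint inside a protein-coding gene, 166 had a gene within 50 kb and 102 (17.3%) had none. For T2-only regions these numbers were 919 (57.4%), 482 and 201 (12.5%). Only 40 T1-only (6.78%) and 113 T2-only regions (7.05%) reached to within 1 kb of a gene's end, against 25.3% of the regions called in all 4. A region called in all 4 libraries lay within 5 kb of 156 T1-only regions (26.4%) and of 593 T2-only regions (37.0%). In all, 465 genes were assigned a T1-only region and 1294 a T2-only region, with 70 genes in both sets. The gene table used gives gene spans without exons, so exon, intron and UTR positions are not stated.

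The strongest T1-only regions were found at a red cell gene, a Notch effector and several places far from genes. The strongest of all, at chr9:84253195-84253815 with no gene within 50 kb, had fold enrichments of 9.81 and 10.9 in the T1 libraries. It also had peaks of 9.43 and 7.22 in WT T1 and of 13.1 in WT T2 replicate 1. Next came a region inside Rhag (chr17:40837313-40837587), which encodes a membrane glycoprotein of the red cell Rh complex. Its values were 10.3 and 9.56 in MUT T1, with 9.67 and 8.85 in WT T1 and 10.7 in WT T2 replicate 1. Both regions were thus missing from the MUT T2 lists and present in 1 WT T2 list.

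Klhl32, a kelch-like gene, had an inside region at chr4:24720791-24721227 with 8.67 and 8.57 in MUT T1 and with peaks in 3 WT libraries. A region at chr5:53672346-53672609, 15032 bp from the nearest end of Rbpj, the DNA-binding effector of Notch signalling, had 8.21 and 8.90 and peaks in the same 3 WT libraries. Icos, a costimulatory receptor of T cells, had a region 5790 bp away (7.30 and 7.25), and Zc3hav1, which encodes an antiviral zinc-finger protein, had one inside the gene (7.30 and 9.23). Pir, on chromosome X, had 7.07 and 8.57. Usp34, a deubiquitinase gene, had a region at chr11:23357167-23357654 with 6.61 and 7.91, and it was the only 1 of the 12 strongest T1-only regions without a peak in any WT library.

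The strongest T2-only region reached a higher level than any T1-only region. It lay at chr6:31803272-31803502, 239450 bp from the nearest protein-coding gene, with fold enrichments of 16.4 and 15.01 in the T2 libraries and summit pileups of 87 and 77. No T1 library and no WT library had a peak there. A region inside Rnf130, a ubiquitin ligase gene, at chr11:50114280-50114630, had 16.1 and 12.8 in MUT T2. WT T1 replicate 2 had 17.1 there and WT T2 replicate 1 had 17.7. Mettl7a3, of the methyltransferase-like family, had 11.4 and 10.97 in MUT T2 and peaks in the same pair of WT libraries as Rnf130.

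A further 4 of the 12 strongest T2-only regions had a peak in all 4 WT libraries. They were a region at chr19:15035502-15035987 without a gene (9.97 and 11.7 in MUT T2), one inside Fcho2, which acts in clathrin-mediated endocytosis (9.02 and 9.26), one inside Upp2, a uridine phosphorylase (9.02 and 9.50), and one 7486 bp from Spcs3, a signal peptidase subunit (11.6 and 8.77). Nebl, which encodes the actin-binding protein nebulette, went the other way in the WT marrow: its region had 11.4 and 9.75 in MUT T2 against 10.8 and 8.62 in the WT libraries of T1, and no peak in MUT T1 or WT T2. Amtn, Krt28, Slc16a12 and Clec4n made up the rest, with a smaller fold enrichment between 9.02 and 9.97. The 12 strongest regions of each side all kept their side under the 5 other processing choices.

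**Figure D2:**
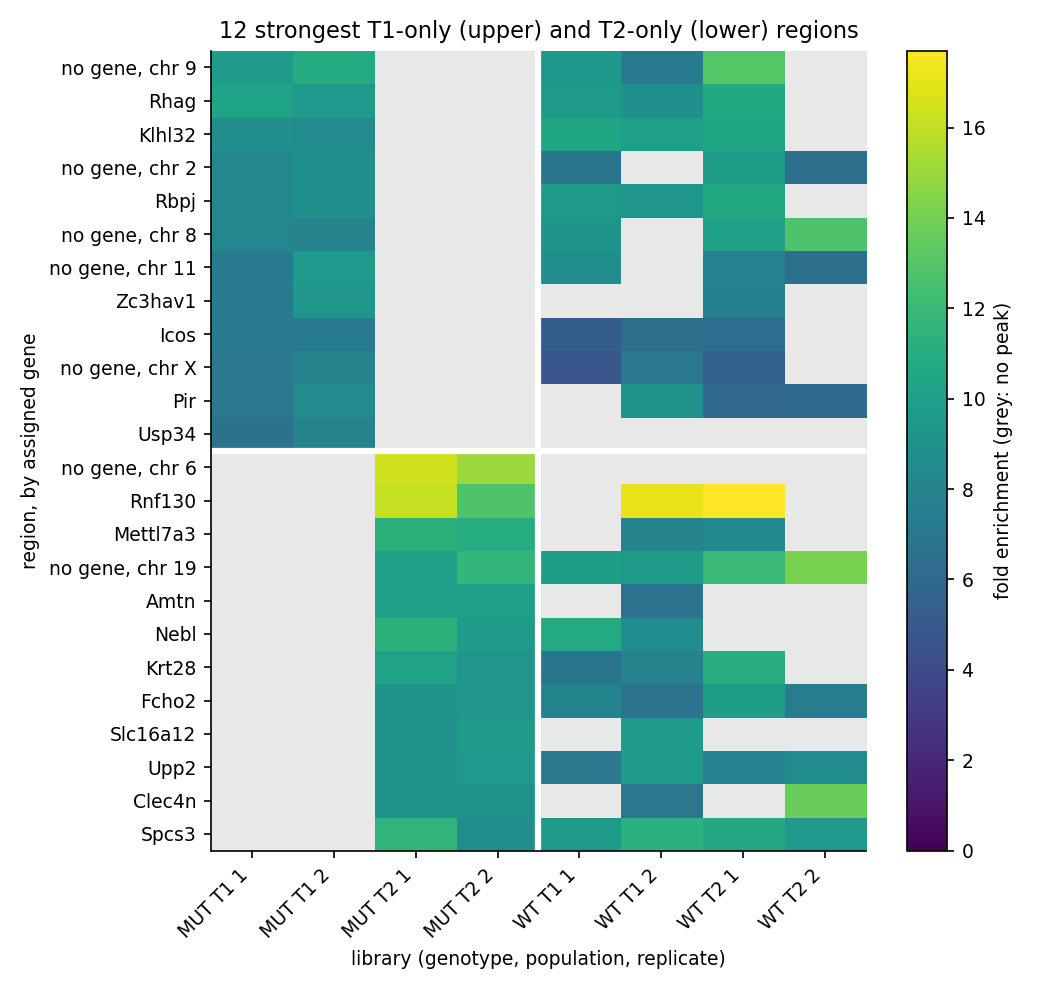
Colour gives the peak caller's fold enrichment of the 12 strongest T1-only (upper) and T2-only (lower) regions, one row per region named by its assigned gene, in the 8 libraries, with grey where the list has no peak. The empty blocks in the MUT columns are what the rule selects; in the WT columns most rows are filled in 1 to 4 libraries, and only Usp34 and the chromosome 6 region are empty.

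WT libraries, which took no part in the choice of the regions, tested whether the split followed the T1 and T2 labels. T1-only regions had a peak in 45.8% and 45.8% of cases in the WT T1 libraries and in 33.7% and 23.2% in the WT T2 libraries. T2-only regions had one in 47.8% and 51.7% in WT T1 and in 35.1% and 26.8% in WT T2. Both sets were thus found more often in WT T1 than in WT T2, and T2-only regions more often than T1-only regions in each of the 4 libraries. The T1-only percentage minus the T2-only percentage, taken within each WT library, averaged -4.02 points in WT T1 and -2.46 points in WT T2. The difference between them was -1.56 points, with a two-sided exact permutation p = 0.667, the smallest possible value being 0.333. It was -9.96 points (exact permutation p = 0.333) with lists of 63976 peaks, where WT T2 replicate 2 had only its 62232 peaks to give. Its sign turned at the stricter q-value (0.451) and without MUT T2 replicate 1 (5.14), MUT T2 replicate 2 (4.28) or WT T1 replicate 2 (0.403). WT T2 replicate 2 had the lowest background of all 8 libraries, 1.89, and WT T1 had 3.24 and 3.29, so population and depth go together in the WT libraries and their parts in these percentages were not tested.

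**Figure D3:**
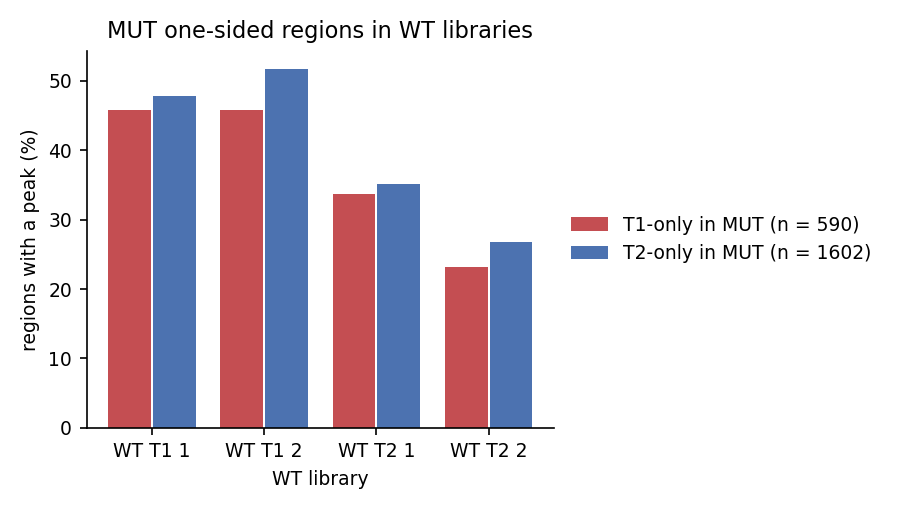
Bars give the percentage of the 590 T1-only (red) and 1602 T2-only (blue) MUT regions that have a peak in each of the 4 WT libraries. The blue bar is the higher in every library, and both bars are higher in WT T1 (45.8 to 51.7%) than in WT T2 (23.2 to 35.1%).

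Region by region, 45 T1-only regions (7.63%) were also called in both WT T1 and neither WT T2 library, and 24 T2-only regions (1.498%) in both WT T2 and neither WT T1 library. The opposite split in WT was found for 9 T1-only regions (1.53%) and for 165 T2-only regions (10.3%). The WT T1-only pattern was thus the commoner in T1-only and T2-only regions alike. It was the commoner over all 85310 regions too, where the WT pattern T1-only made up 3.68% and T2-only 0.603%. Its lead is therefore not particular to the T2-only regions. Among the T1-only regions with the same split in WT were one assigned to Cd36, a fatty acid and thrombospondin receptor (8.90 and 6.59 in MUT T1, 9.67 and 8.62 in WT T1), and others at Riok2, an atypical kinase of ribosome assembly, and Cd109, with smaller MUT values of 5.94 and 5.93. On the T2 side they were led by Capn1, a calcium-dependent protease (6.22 and 6.17 in MUT T2, 6.89 and 8.14 in WT T2), Paxbp1, Lmx1b, Csnk1g1 and Tmem158. No WT library had a peak in 146 T1-only (24.7%) and 371 T2-only regions (23.2%), against 9.96% of all regions. All 4 WT libraries had one in 34 (5.76%) and 128 (7.99%), against 62.7% of all regions.

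At Bcl11a itself (gene span chr11:24076564-24173558) both populations carried the same main peaks. Of 12 regions inside the gene or within 5 kb of it, 6 were called in all 4 MUT libraries and in all 4 WT libraries. The region over the first base of the gene span, chr11:24076091-24077748, had fold enrichments of 2.87 and 3.82 in MUT T1 and of 2.97 and 3.15 in MUT T2, which overlap. At chr11:24080689-24081742 they were 2.62 and 2.88 in T1 and 2.51 and 2.54 in T2, and at chr11:24111702-24112128 they were 4.88 and 6.31 in T1 and 4.07 and 4.69 in T2. In both of these T1 was above T2 without overlap in fold enrichment. By rank within library, which is not the same measure, that held in 15.8% of all shared regions. No region passed the limma test described below for shared regions. The strongest peak within the gene, chr11:24161897-24162716, had 6.72 and 7.63 in T1 and 7.08 and 6.49 in T2, so the groups overlapped. At chr11:24139187-24139946 the values were 4.53 and 6.06 in T1 and 6.02 and 5.66 in T2, again overlapping.

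One T1-only region lay inside Bcl11a, at chr11:24131730-24132204, with 2.53 and 3.33 in MUT T1 and 2.904 in WT T1 replicate 1. Another lay 44467 bp beyond the gene, at chr11:24217847-24218204, with 3.00 and 3.57 in MUT T1 and 3.18 in WT T1 replicate 2. Neither stayed T1-only with equal lists, and the inside region was also lost after rescaling to the lowest background and at a stricter q-value. Another 3 regions inside the gene had a MUT peak in T2 replicate 1 alone.

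The HSC label was checked against markers before gene groups were read. A region called in all 4 MUT libraries came within 1 kb of an end of 28 of 30 HSC identity genes (93.3%), against 65.5% of all protein-coding genes. The share was 44% for B lymphoid, 60% for T and NK lymphoid, 40% for granulocyte and monocyte, 66.7% for erythroid, 84% for megakaryocyte and platelet, and 72% for stromal and endothelial genes. Lists that are not markers of a cell type were as high or higher. It was 100% for TGF-beta and niche signalling, 96% for AP-1 and immediate early genes, and 96% for BCL11A and chromatin partners. For interferon response it was 95.8%, for HSC aging 92%, and for inflammation and for cell cycle genes 84% each. A high share is thus not particular to HSC identity genes. An open gene end at a lineage gene is not a measure of those cells in the sort.

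In 14 gene lists few regions were one-sided, and no list held more than 8 on a side. Of all 74840 regions assigned to a protein-coding gene, 488 (0.652%) were T1-only and 1401 (1.87%) T2-only, and with equal lists 812 and 844. Genes of HSC identity had 5 T1-only and 8 T2-only regions of 351 as deposited, but 8 and 2 with equal lists, so the direction of this list turned with the number of peaks taken. Mllt3, a maintenance factor of HSC self-renewal, had the strongest T1-only region of the list (5.90 and 5.68, WT T1 replicate 1 6.45). Gfi1b, a repressor of HSC and megakaryocyte-erythroid cells, had the strongest T2-only region (8.05 and 5.49) and a weaker T1-only one (2.25 and 2.28). Its T2-only region also had WT peaks, of 5.59 and 6.03 in T1 and of 7.58 in T2 replicate 1.

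Mecom, the gene of the stem cell regulator EVI1, also had regions on both sides: 1 T1-only (2.09 and 2.5003) and 2 T2-only regions (3.55 and 3.92 in the stronger). Slamf1, whose product CD150 is used to sort HSC, had a T2-only region (3.63 and 3.67) without a WT peak. Fli1, Hlf, Erg and Hoxa10, all transcription factors of stem cells, had 1 T2-only region each, with smaller values of 3.45, 2.75, 2.55 and 1.90. In the same order, these regions had a peak in 4, 1, 2 and 1 WT libraries. The T2-only regions of Gfi1b and Erg, and the T1-only regions of Mllt3 and Mecom, kept their side under every alternative, and those of Slamf1, Fli1, Hlf and Hoxa10 did not. The T1-only region of Mecom had the opposite split in WT, with 2.28 and 1.996 in T2 and no peak in T1. The weaker of its T2-only regions, at chr3:30498451-30498767, had the same split in WT as in MUT. It had 4.25 and 4.53 in WT T2 and no peak in WT T1.

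Genes known to rise in aged HSC had 1 T1-only and 7 T2-only regions of 159 (4.40% T2-only), yet none on either side with equal lists. The T2-only ones were at Gda (4.75 and 5.61), Fhl1 on chromosome X (5.12 and 4.34), Vwf, the platelet adhesion protein of platelet-biased HSC (4.71 and 3.82), Slamf1, Jam2, Nupr1 and Alcam, and the T1-only one was at Runx1t1 (3.65 and 4.28). Cell cycle and survival genes gave a like picture, with 1 T1-only and 7 T2-only regions of 172 and 2 on each side with equal lists. The T1-only region lay inside Cdkn1c, the cell cycle inhibitor p57 of quiescent HSC (2.81 and 3.34). Among the genes with T2-only regions were Ccnd1, Ccnd2 and Ccnd3 (the D-type cyclins), Cdkn1a (p21), Cdkn2a (p16 and p19) and Mdm2, with smaller values from 2.33 at Ccnd2 to 3.90 at Ccnd1. Those at Cdkn1a and Ccnd2 kept their side under every alternative, but both were called in both WT T1 and neither WT T2 library, the opposite split.

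TGF-beta and niche signalling, which holds HSC in quiescence, had 3 T1-only and 8 T2-only regions of 270, and 7 and 5 with equal lists. The receptor genes were found on both sides. Tgfbr1 (the type I receptor) had a T1-only region of 5.62 and 5.73, which was also called in both WT T1 libraries and WT T2 replicate 1. Tgfbr2 (the type II receptor) had a T1-only region inside the gene, 376 bp from an end (3.62 and 5.34) and a pair of T2-only regions (4.01 and 4.39 in the stronger). Tgfbr3 (the co-receptor betaglycan) had 3 T2-only regions (4.75 and 5.72 in the strongest), and Smad4, the shared signal transducer, had 1 on each side. Cxcr4, the receptor that retains HSC in the marrow, had a T2-only region (6.17 and 5.12) that kept its side under every alternative but was also called in both WT T1 libraries (5.89 and 4.66) and in WT T2 replicate 2 (6.91).

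BCL11A and its chromatin partners had 3 T1-only and 3 T2-only regions of 142, and 1 on each side with equal lists. Beside the pair at Bcl11a, Sox6, which acts with BCL11A at the globin genes, had a T1-only region (3.88 and 4.28). Kdm1a (the demethylase LSD1; 3.71 and 3.48), Myb (3.13 and 3.61) and Arid1a (2.91 and 2.58) had T2-only regions, of which only that of Arid1a kept its side throughout. In WT the Arid1a region had the opposite split, with 2.83 and 2.25 in T1 and no peak in T2. Inflammation and NF-kB genes had 2 and 3 of 138, at Il1rap and Traf1 on the T1 side and at Ccl5, Nfkb1 and Il6ra on the T2 side. Interferon response genes had 1 and 0 of 89, at Ly6e (2.95 and 3.41). AP-1 and immediate early genes, which rise with handling stress, had no one-sided region among 142.

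Lineage lists had few one-sided regions too. B lymphoid genes had 0 and 1 of 125, and T and NK genes 2 and 3 of 146, with a pair of T1-only regions at Themis (5.02 and 6.59 in the stronger) and T2-only regions at Il2rb, Gata3 and Eomes. Granulocyte and monocyte genes had 0 and 1 of 84, inside Mpo, the myeloperoxidase gene (3.91 and 4.52, with peaks in both WT T1 and neither WT T2 library). Erythroid genes had 1 and 2 of 97 (Rhag on the T1 side, Ank1 among the T2-only), megakaryocyte and platelet genes 1 and 4 of 158 (Rap1b against Cd9, Vwf, Fli1 and Rap1b), and stromal and endothelial genes 0 and 3 of 163 (Fbn1, Col1a1 and Sp7). With equal lists these 6 counts became 0 and 1, 3 and 1, 0 and 1, 1 and 0, 4 and 3, and 2 and 3. A difference between T1 and T2 in any of these lists was not tested, and the counts are too small to be read against the background of all genes.

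Some genes held several one-sided regions, in part on both sides, among them long genes with many regions of any kind. On the T2 side Wwox, an oxidoreductase gene, had 5 T2-only regions of 46 in all over 913 kb, with smaller fold enrichments of 2.54 to 3.66. Arhgap26, a RhoA-inactivating protein gene, had 4 T2-only and 1 T1-only region of 44. Etv6, an ETS-family repressor needed for HSC in the marrow, had 3 T2-only regions (2.86 and 3.52, 2.74 and 3.51, 3.19 and 4.08) and 1 T1-only region (2.61 and 3.32). Irf2, which restrains interferon signalling, had 3 T2-only regions, and Eml1 and Pard3 had 3 each. On the T1 side Nhsl2 on chromosome X had 3. Rora, a nuclear receptor gene, had 2 T1-only and 3 T2-only regions of 54, and Zbtb16, the gene of the transcription factor PLZF, had 2 and 1. In all, 22 genes had 2 or more T1-only regions and 93 had 2 or more T2-only regions.

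Chromosome X held the largest share of T1-only regions, 31 of 1855 (1.67%), and of T2-only regions, 41 (2.21%). Autosomes ranged from 0.474 to 0.987% for T1-only. With equal lists chromosome X had 29 and 30. Without chromosome X the genome-wide counts were 559 and 1561, and the T1-only share was 26.4%.

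**Figure D4:**
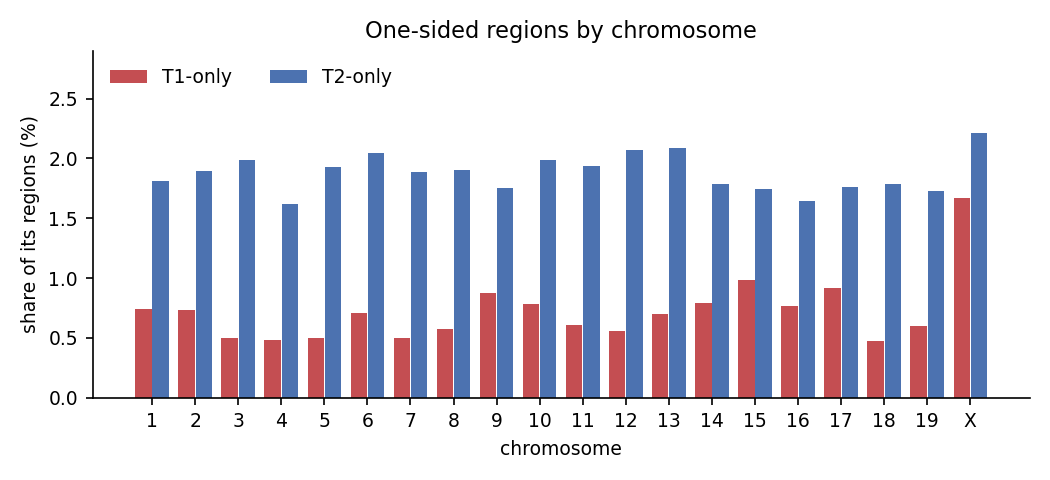
Bars give T1-only (red) and T2-only (blue) regions as a percentage of all merged regions of each chromosome. Chromosome X has the highest bar of each colour, 1.67% and 2.21%.

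In the 55791 regions called in all 4 libraries, no difference in peak strength between T1 and T2 passed the test. With 2 libraries a group this is not a measure of equal strength. Fold enrichments were ranked within each library and turned into normal scores, so that a value of 0 is a middle-ranked region. The difference of the mean scores, T1 minus T2, had a median of 0.01, with quartiles of -0.20 and 0.21 and a median standard error of 0.31. No region passed an adjusted p of 0.05 in either direction (0.0% of regions, limma with Benjamini-Hochberg adjustment), and the lowest adjusted p was 1.00. At an unadjusted p under 0.05 limma gave 789 regions higher in T1 and 1161 higher in T2. Both T1 values were above both T2 values in 8824 regions (15.8%) and the reverse in 8081 (14.5%). The median absolute difference between the group means was 0.208, and that between replicates, divided by the square root of 2, was 0.255 in T1 and 0.197 in T2. Scores correlated across regions at 0.845 between the T1 libraries, 0.897 between the T2 libraries and 0.868 to 0.901 between a T1 and a T2 library, as a description of libraries that share these regions.

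**Figure D5:**
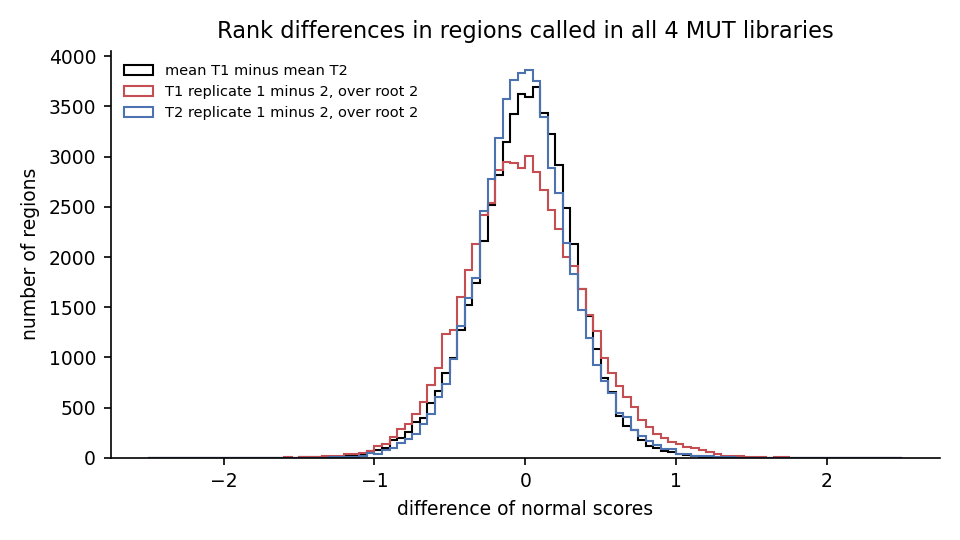
Histograms over the 55791 shared regions give the difference of normal scores, T1 mean minus T2 mean (black), and replicate 1 minus replicate 2 over the square root of 2 within T1 (red) and T2 (blue). The black curve is wider than the blue and narrower than the red, with median absolute values of 0.208, 0.197 and 0.255.

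The shared regions farthest apart in rank were led by one near Rap2b, which encodes a RAS-like GTPase. Its scores were -3.07 and -2.10 in T1 and -0.47 and -0.13 in T2, a difference of -2.28 (SE 0.36). The groups did not overlap and the unadjusted p of the limma fit was 7.26e-05, but its limma adjusted p was 1.00, and it ranged from 0.0744 to 1 over the alternatives. On the same side were regions without a gene at chr8:128078650-128079313 (difference -1.88) and chr5:105986198-105986865 (-1.81), and regions at Anapc5, a subunit of the anaphase-promoting complex (-1.70), Pde4d, a cAMP phosphodiesterase (-1.55), Xrcc5, the DNA repair protein Ku80 (-1.54), Frs2 (-1.50) and Col26a1 (-1.47). Higher in T1 were regions at Pakap (1.41), Tmprss2, a transmembrane serine protease (1.41), Jam3, a junctional adhesion molecule of HSC (1.397), Drc3 (1.38), Nckap1 (1.37) and Tgm3 (1.27), and regions without a gene on chromosomes 1 and 19 (1.29 and 1.25). These were picked for their distance, and none passed the adjusted test.

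By list, the median score difference ran from -0.03 for interferon response to 0.15 for BCL11A and chromatin partners, beside 0.01 for all regions. HSC identity had a median of 0.03, with both T1 above both T2 values in 38 of 199 regions (19.1%) and the reverse in 20 (10.1%). Over all shared regions these shares were 15.8% and 14.5%. For T and NK genes the median was 0.10 (20 and 7 of 97), for HSC aging genes 0.04 (17 and 15 of 96), and for cell cycle and survival genes 0.06 (17 and 17 of 106). T1 was also above more often for erythroid (12 and 4 of 68) and megakaryocyte and platelet genes (21 and 12 of 100). The same held for BCL11A and partner genes (17 and 10 of 86) and TGF-beta and niche genes (26 and 17 of 157). It held for inflammation and NF-kB (16 and 12 of 91) and granulocyte and monocyte genes (6 and 4 of 49) as well. T2 was above more often for B lymphoid (7 and 9 of 81) and interferon response genes (9 and 13 of 70). So it was for AP-1 and immediate early (13 and 17 of 102) and stromal and endothelial genes (20 and 24 of 104). These medians and counts were not tested, and no single region of a list passed, the lowest limma adjusted p in each being 1.00.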

How the data were processed

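ATAC-seq was measured in 8 libraries of mouse HSC (4 groups of 2), of which the 4 MUT libraries were compared. Reads were processed with Bowtie2, SAMtools and MACS2 against mm10, per the submitters' processing notes, which give no versions, order or settings. The authors deposited 1 peak list per library, whose columns hold the fold enrichment over local background (a ratio), −log10 p, −log10 q, a score and the position of the summit. The lowest deposited −log10 q in each MUT list was 3.00 to 3.02, so peaks start at q = 0.001. The deposited score entered no test. Read depth is unknown. Pileups and the genome-wide background were recovered from the deposited fold enrichment and −log10 p together, for at least 99.9866% of the peaks of a list, to within 0.001 on the −log10 p scale.

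Merging, overlap and assignment to genes were done in Python 3.11.15 (numpy 2.4.6, pandas 2.3.3, scipy 1.17.1, figures with matplotlib 3.10.9) and the rank fit with limma 3.58.1 in R 4.3.3, both tested on simulated data. A region belonged to the protein-coding gene holding its midpoint, otherwise to the gene with the nearest end within 50 kb. For the fit, fold enrichment was ranked within each library over the regions called in all 4 MUT lists, turned into normal scores and tested without covariates, with Benjamini-Hochberg adjustment and a threshold of 0.05. Peak numbers and WT percentages were tested with exact permutation tests over libraries. Replicate numbers run from 1 to 2 in each group and no label says that they mark shared animals. Alternatives were an equal number of peaks per list, rescaling to the lowest background, −log10 q of at least 5, 500 bp summit windows, merging over all 8 lists, other scales for the ranks, a replicate block and leaving out each library.

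Named are the 12 strongest one-sided regions per side by the smaller of their 2 fold enrichments, up to 4 per gene list and side, 8 per side of the rank fit, Bcl11a, the 5 strongest per side with the same split in WT, and up to 5 genes per side with the most one-sided regions (ties included). Some regions that this rule names are not reported here. The 14 gene lists (354 entries), the motifs and the comparison itself were chosen with earlier results of these data known. Gene spans and start windows are from RefSeq, GRCm38.p6.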

Additional observations from a re-analysis of the deposited data

Results flagged for a closer look

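Some regions were split between T1 and T2 in opposite directions in MUT and WT marrow. A peak in both MUT T2 and neither MUT T1 library went with a peak in both WT T1 and neither WT T2 library in 165 regions (10.3% of the T2-only regions), led by those at Nebl (11.4 and 9.75 in MUT T2 against 10.8 and 8.62 in the WT libraries of T1), Dnah9, an axonemal dynein gene (7.60 and 7.55 in MUT T2), Dgkg, a diacylglycerol kinase gene (7.60 and 7.31), and Cfap206 (7.18 and 7.03). The reverse, T1-only in MUT and T2-only in WT, was found in 9 regions (1.53% of the T1-only regions), among them those at Sema5a, a semaphorin gene (6.16 and 5.27 in MUT T1, 5.80 and 5.53 in WT T2), and Vsir, the immune checkpoint VISTA (4.33 and 4.72 in MUT T1, 4.64 and 4.49 in WT T2). Over all 85310 regions the WT split T1-only made up 3.68% and T2-only 0.603%. The same split as in MUT was found for 7.63% of the T1-only and 1.498% of the T2-only regions. The WT split T1-only was thus the commoner in each set and over all regions, so 165 against 9 is not particular to these sets. Background was 2.45 and 1.89 in WT T2 and 2.035 in MUT T1 replicate 2. It was 3.10 to 3.38 in the remaining libraries, and the part of depth in these splits was not tested. The difference between MUT and WT was not tested for these regions, since a missing peak has no value. In the 49672 regions called in all 8 libraries the T1 minus T2 difference in rank was compared between MUT and WT with limma. None passed, with a lowest Benjamini-Hochberg adjusted p of 0.689, and 3536 had an unadjusted p under 0.05.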

How the results depend on the processing

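T1-only counts were 931 with equal lists, 931 with summit windows and 606 after rescaling. They were 6788 and 4208 within replicate 1 and 2, and 1482 to 4316 without 1 library. T2-only counts were 985 with equal lists, 1534 after rescaling, 7161 and 11983 within replicate 1 and 2, and 2627 to 7828 without 1 library. The T1-only share was 48.6% with equal lists, 28.3% after rescaling, 24.2% at the stricter q-value, 31.6% with summit windows and 48.7% within replicate 1. Without 1 library it ran from 19.8 to 62.2%, the highest without T1 replicate 2. Within-replicate and autosome counts were added after seeing the data. The WT difference of -1.56 points was 0.451 at the stricter q-value, and ran from -7.90 to 5.14 without 1 library. It turned positive without MUT T2 replicate 1 (5.14), MUT T2 replicate 2 (4.28) or WT T1 replicate 2 (0.403). The difference in peak number ran from -9036 to 1180 without 1 library and was positive only without T1 replicate 2 (1180). In all of these the cause was not tested. With the replicate block limma also called 0 regions in each direction, with a lowest adjusted p of 0.0744, and 1012 (T1) and 1476 (T2) regions at an unadjusted p under 0.05. Same-numbered libraries deviated together only weakly, at 0.0700 over regions, and only 2 pairs exist. The other rank fits called 0 regions as well. Of 90 named one-sided regions 54 kept their side with equal lists, 80 after rescaling, 77 at the stricter q-value, 87 with summit windows and 89 when merged over 8 lists. Peak lists limit all counts, since a missing peak is not a measured absence, and 2 libraries a group allow no permutation p under 0.333.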
